A study of Mus musculus with 39 samples.

Results

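Single crypt cells of the mouse small intestine that had survived irradiation were compared in 9 surface marker genes: Epcam, Cd24a, Cd44, Cd164, Itga6, Itgb1, Prom1, Cd320 and Alcam. They were the rows of the deposited table whose gene name is one of these 9, out of 25219 genes. Every gene was measured in the same 39 cells. The question was how far each marker varied from cell to cell, and which pairs of markers separated cells. Epcam RNA was present in every cell. Cd24a, Cd44, Itga6 and Cd164 were present in most cells, and the range of levels was widest in Cd24a. Itgb1 and Prom1 were missing from a sizeable share, and Cd320 and Alcam were present in a minority. A pair of cells stood far above the others in Cd24a, and the same cells carried the RNA of tuft cell markers.

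The cells came from mice with an Lgr5-EGFP-Ires-CreERT2 allele and a Rosa-lsl-tdTomato allele. In this line the Lgr5 locus drives a green reporter and a tamoxifen-inducible Cre, so that tamoxifen permanently marks Lgr5-expressing stem cells and their progeny with the red protein tdTomato. Tamoxifen was given 24 h before 10 Gy of total body irradiation (TBI), and cells that were positive for tdTomato and negative for the surface protein Sca1 were sorted 48 h after TBI. They are called Lgr5-derivatives here. All 39 cells belonged to this 1 group, so no unirradiated, unmarked or Sca1-positive cells were analysed here. The age of the mice and the animal behind each cell are not given in the sources used here. All cells together thus count as 1 biological sample. SDs describe the spread among cells, and p-values were not computed.

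Surface proteins of the crypt have been used to separate stem cells, their dividing progeny and the secretory cells of the crypt base by flow cytometry. EpCAM is a homophilic adhesion molecule of epithelial cells. CD24 is a small, heavily glycosylated protein anchored by a lipid, with high protein levels on Paneth and tuft cells. CD44, the receptor for hyaluronan and a target gene of Wnt signalling, and prominin-1 (Prom1, also known as CD133), a pentaspan protein of membrane protrusions, are familiar markers of crypt base cells. Integrins are pairs of an alpha and a beta subunit that bind the basement membrane. Alpha6 (Itga6) joins either beta1 (Itgb1) or beta4, and beta1 joins many alpha subunits. Alcam (CD166) is an adhesion molecule of the immunoglobulin superfamily, CD164 (endolyn) is a sialomucin that also cycles through endosomes and lysosomes, and CD320 is the receptor that takes up transcobalamin with its cargo vitamin B12. RNA was measured here, and surface protein was not.

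Values were deposited as FPKM, fragments per kilobase of transcript scaled to a total of the cell, so levels of different genes can be set side by side. Detection means a level of at least 1 FPKM in that cell, and shares are given with exact Clopper-Pearson 95% intervals, which cover counting error only. The genes of a cell held between 398418 and 3903971 estimated counts (median 3089188), and 2287 to 5779 genes were detected per cell (median 4609). Cells 9 and 79, named by the number in their labels, stood apart with 2287 and 2335 genes, against 2988 or more in the other 37. The share of the total that lay on genes was 33.4% in cell 9 and 63.5% in cell 79, against 70.6% or more elsewhere. The share of cells with each marker, and the counts of the pairs that separate cells, are also given without them. No 2 cells held identical values, and the highest correlation between cells was 0.76.

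The label of the cells was checked against markers. The keratins Krt8 and Krt18 and the claudin Cldn7 were detected in 39 of 39 cells, and 7 of 8 epithelial markers were detected in at least 20 cells. The exception was Cdx2, an intestinal transcription factor that was detected in 2 cells. Of 7 stem cell markers 6 were detected in at least 20 cells, and the exception was Lgr5 itself, in 8 cells. The summed level of 8 immune cell markers was at most 2.75 FPKM in a cell, and all 8 stromal and endothelial markers were at 0 in every cell. Ly6a, which encodes Sca1, was detected in 4 of these cells sorted as Sca1-negative, at 509 FPKM in cell 34, 477 FPKM in cell 5, 3.44 FPKM in cell 2 and 1.26 FPKM in cell 43.

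As a set, the markers were among the more widely detected genes. Of the 9, 7 were detected in at least 20 of 39 cells, against 14.5% of the 25219 genes. Only Epcam was detected in all 39 cells, as were 1.27% of all genes. The median was 10 FPKM or higher for 6 of the 9, against 8.64% of all genes. Since these genes are markers that others had already used on crypt cells, the counts describe the set and were not tested.

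**Figure D1:**
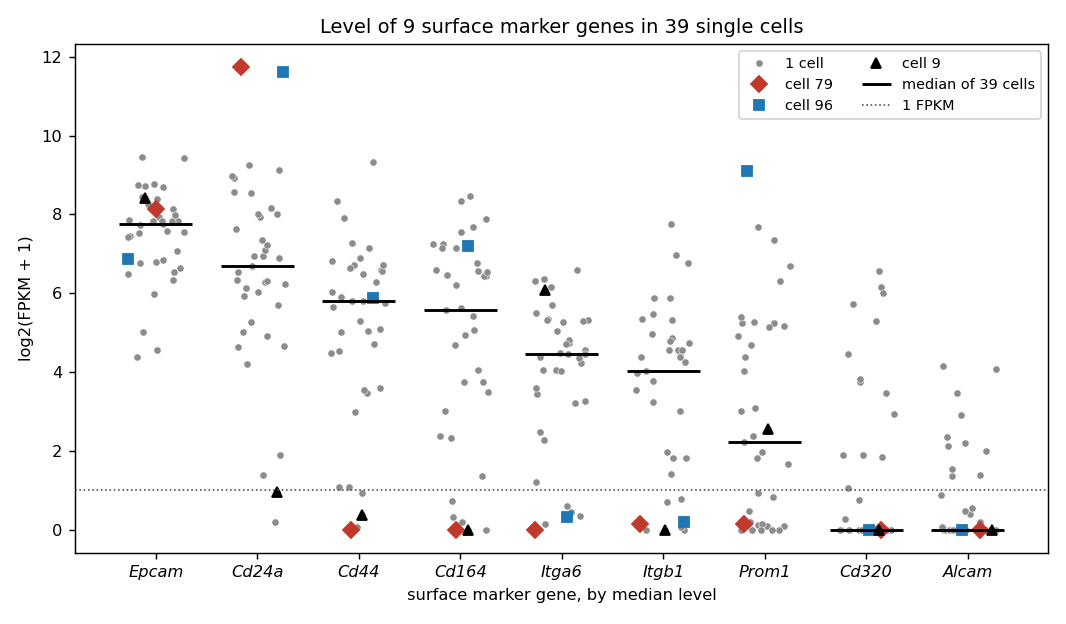
Level of each of the 9 surface marker genes in 39 single cells, as log2(FPKM + 1) on the vertical axis. Each point is 1 cell, the bar is the median of 39 cells, the dotted line is 1 FPKM, and cells 9, 79 and 96 have symbols of their own. Epcam stays above the dotted line in every cell, cells 79 and 96 lie above all others in Cd24a, and the medians of Cd320 and Alcam are at 0.

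Epcam (Entrez Gene 17075; mm10, chromosome 17, 87635979 to 87651127, plus strand) had the highest median of the 9 markers and the smallest coefficient of variation, 0.680. It was lowest in cell 56 at 19.8 FPKM, had a median of 216 FPKM and was highest in cell 83 at 699 FPKM, followed by cell 52 at 685 FPKM. The mean was 231 ± 157 FPKM (SD over 39 cells), and 31 cells were at 100 FPKM or more. The 3 lowest cells, 56, 76 and 30, stood between 19.8 and 31.4 FPKM and were backed by 98 to 184 estimated counts. In the study's flow cytometry of crypt cells EpCAM protein served as a gate, so its presence in every cell is not a finding. All 39 of 39 cells held it (100%, 95% interval 91.0 to 100), as did 37 of 37 without cells 9 and 79.

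The molecules around EpCAM were nearly as widespread. Claudin-7, which binds EpCAM at the lateral membrane, had a median of 242 FPKM and ranged from 5.73 to 877 FPKM. Spint2, an inhibitor of the membrane proteases that can cleave EpCAM, was detected in 39 cells with a median of 142 FPKM. Beta-catenin (Ctnnb1) and Cldn3 were detected in 38 cells each, with medians of 106 and 95.3 FPKM. In all, 7 genes fixed as partners of Epcam were detected in at least 20 cells.

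Cd24a (Entrez Gene 12484; chromosome 10, 43579169 to 43584265, plus strand) had the widest range of the 9. It was lowest in cell 48 at 0.135 FPKM, from a single estimated count, had a median of 103 FPKM and was highest in cell 79 at 3416 FPKM. Cell 96 followed at 3151 FPKM, and the next cell, 30, was at 605 FPKM. Cells 79 and 96 thus stood apart from the other 37. The mean was 319 ± 718 FPKM over 39 cells and 159 ± 167 FPKM without cells 79 and 96, while the median moved only to 92.4 FPKM. Cd24a was detected in 37 of 39 cells (94.9%, 82.7 to 99.4), and in 36 of 37 without cells 9 and 79. The cells under 1 FPKM were 48 and 9, and the next lowest cells were at 1.61 and 2.69 FPKM.

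Tuft cells are rare chemosensory cells of the epithelium, and Cd24a was highest where their marker RNA was highest. The sum over 6 tuft cell markers was 9054 FPKM in cell 96 and 4965 FPKM in cell 79. In the other 37 cells it was at most 29.8 FPKM, in cell 54, with a median of 0.169 FPKM. Dclk1, a kinase that defines tuft cells in the mouse gut, was at 222 FPKM in cell 96 and 105 FPKM in cell 79, and at most 0.0289 FPKM elsewhere. Alox5ap, which serves leukotriene synthesis, was at 5443 and 3311 FPKM, against at most 17.1 FPKM elsewhere. Trpm5, the cation channel of taste transduction, was high in cell 79 only (181 FPKM), and the transcription factor Pou2f3 in cell 96 only (162 FPKM). Rgs13, a list member picked out after its values were seen, was at 3217 FPKM in cell 96 and 1368 FPKM in cell 79. Il25, the cytokine of tuft cells, was under 1 FPKM in every cell.

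These cells differed in their other markers. Cell 96 had the highest Prom1 of all cells, 549.6 FPKM, with Cd44 at 57.7 and Cd164 at 146 FPKM. Cell 79 had Prom1 at 0.105 FPKM, and Cd44, Cd164 and Itga6 at 0. Itga6 and Itgb1 were under 1 FPKM in both cells, as were Cd320 and Alcam. The keratins Krt18 and Krt8 were highest of all cells in cell 79 (15406 and 4209 FPKM) and next in cell 96 (5666 and 3767 FPKM). Cell 79 also held Fabp1, the fatty acid binding protein of enterocytes, at 40997 FPKM, against 0.599 FPKM in cell 96 and at most 1095 FPKM elsewhere. Cell 79 was 1 of the 2 cells with few genes. Cell 96 came next above these 2, with 2988 genes. Its sum was 2390 FPKM over the stem cell markers and 1553 FPKM over the Paneth cell markers. Whether cell 79 or cell 96 held the RNA of more than 1 cell was not tested.

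**Figure D2:**
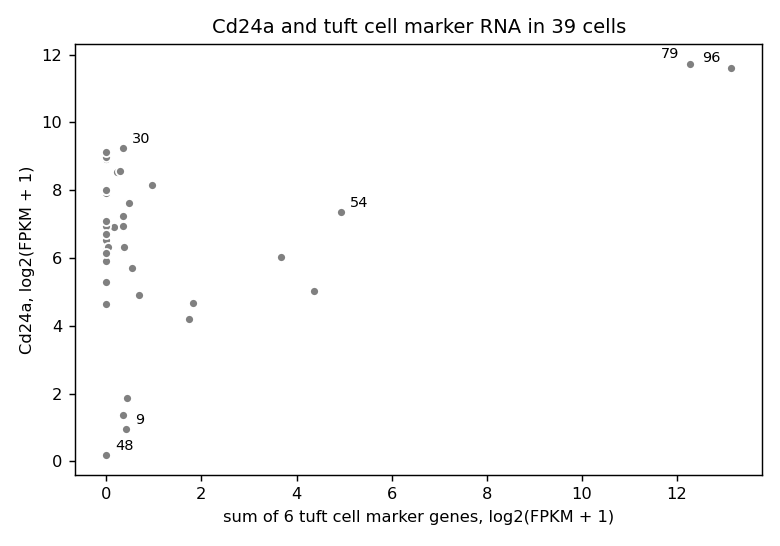
Cd24a against the summed level of 6 tuft cell markers (Dclk1, Trpm5, Pou2f3, Alox5ap, Rgs13, Il25), both as log2(FPKM + 1), with 1 point per cell and the numbers of 6 cells. Cells 79 and 96 lie alone at the upper right, at sums of 4965 and 9054 FPKM, and the other 37 cells span the rest of the Cd24a range at sums of at most 29.8 FPKM.

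In the cells with the highest sums of Paneth or goblet cell markers, Cd24a was not high. Cell 56 had the highest sum of 8 Paneth cell markers, 13404 FPKM, of which the defensin Defa24 made up 8338 FPKM, and its Cd24a was the third lowest. Defa24 was detected in 38 of 39 cells, with a median of 159 FPKM. Cell 56 had 3204 genes, 70.6% of its total on genes, the lowest Epcam of all cells and 3 of the 9 markers. Lower in the Paneth sum, cells 92 (2084 FPKM) and 96 (1553 FPKM) had 563 and 3151 FPKM of Cd24a. Cells 86 (2192 FPKM) and 93 (2023 FPKM) had 69.6 and 149 FPKM of Cd24a. Cell 63, with the highest goblet cell sum (33577 FPKM, of which Agr2, a protein disulfide isomerase of mucus-making cells, 23329 FPKM), had 29.1 FPKM of Cd24a, place 32 of 39. Cell 5, with the next goblet cell sum (26687 FPKM), had 119 FPKM of Cd24a, place 19. These are single cells and no groups were formed from them.

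Cd44 (Entrez Gene 12505; chromosome 2, 102811142 to 102901665, minus strand) was broadly present with 1 cell far above the rest. It was lowest in cell 79 at 0, had a median of 54.9 FPKM and was highest in cell 48 at 640 FPKM, from 14718 estimated counts. Cells 56 and 30 followed at 323 and 241 FPKM. The mean was 80.4 ± 114 FPKM, and cell 48 alone made up 20.4% of the sum over cells. In all, 22 cells lay from 10 to 100 FPKM and 10, with these 3, at 100 FPKM or more. Cd44 was detected in 35 of 39 cells (89.7%, 75.8 to 97.1), and in 35 of 37 without cells 9 and 79. The cells under 1 FPKM were 9, 39, 43 and 79. The annotation gives 8 coding transcripts of Cd44, whose variable exons the gene-level values do not resolve.

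Among 11 genes fixed as linkers, splicing factors and ligand enzymes around CD44, 3 were detected in at least 20 cells. Ezrin (Ezr), which ties the CD44 tail to actin, was detected in 35 cells with a median of 43.7 FPKM. Esrp1, an epithelial splicing regulator of Cd44 exons, was detected in 26 cells, and the hyaluronan-binding protein Hmmr in 20. The other 8 were detected in fewer cells or in none, and 4 of them were at 0 in every cell.

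Cd164 (Entrez Gene 53599; chromosome 10, 41519500 to 41531042, plus strand) was present in most cells and under 1 FPKM in 7. It was at 0 in cells 9, 48 and 79, had a median of 46.7 FPKM and was highest in cell 94 at 355 FPKM. Cells 16, 86 and 17 followed at 323, 234 and 206 FPKM. The mean was 78.2 ± 89.8 FPKM. It was detected in 32 of 39 cells (82.1%, 66.5 to 92.5), with a median of 85.3 FPKM in those cells, and in 32 of 37 without cells 9 and 79. The 7 cells under 1 FPKM were 9, 29, 34, 48, 51, 56 and 79.

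The integrin subunits Itga6 and Itgb1 had similar medians. Itga6 (Entrez Gene 16403; chromosome 2, 71786939 to 71858427, plus strand) was lowest in cell 79 at 0, had a median of 20.9 FPKM and was highest in cell 54 at 96.1 FPKM. Its mean was 26.4 ± 24.7 FPKM, no cell reached 100 FPKM, and its coefficient of variation, 0.937, was the smallest after that of Epcam. It was detected in 33 of 39 cells (84.6%, 69.5 to 94.1), and in 32 of 37 without cells 9 and 79. The highest cells, 54, 93 and 83, lay between 78.2 and 96.1 FPKM, so no single cell stood apart.

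Itgb1 (Entrez Gene 16412; chromosome 8, 128685654 to 128733579, plus strand) was at 0 in cells 9, 56 and 67, had a median of 15.3 FPKM and was highest in cell 72 at 216 FPKM. Cells 95 and 7 followed at 123 and 108 FPKM, and the next cell was at 58.3 FPKM. The mean was 26.2 ± 41.5 FPKM, and cell 72 made up 21.1% of the sum. It was detected in 29 of 39 cells (74.4%, 57.9 to 87.0), and in 29 of 37 without cells 9 and 79.

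RNA of both subunits of the alpha6 beta1 receptor was found in 26 cells. Itga6 was detected without Itgb1 in 7 cells (9, 14, 36, 39, 67, 71 and 93), Itgb1 without Itga6 in 3 cells (5, 29 and 30), and neither in cells 56, 79 and 96. Without cells 9 and 79, 6 cells held Itga6 alone and 3 held Itgb1 alone. Itgb4, the other partner of alpha6 in the hemidesmosome, was detected in 14 cells, with at most 82.2 FPKM in cell 7. Of the 33 cells with Itga6, 11 held both beta subunits, 15 held Itgb1 only, 1 held Itgb4 only and 6 held neither at 1 FPKM. The levels of Itga6 and Itgb1 had a Pearson's r of -0.07 on log2(FPKM + 1) over 39 cells and of -0.26 without cells 79 and 96, in which both were under 1 FPKM.

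Other alpha subunits were sparse. Itga3, which binds laminin with beta1, was detected in 12 cells, Itgav in 11, and Itga1 and Itga2 in 4 each. Over the alpha subunits Itga1, Itga2, Itga3, Itga5, Itga6 and Itgav, a set put together after the values were seen, 11 of the 29 cells with Itgb1 held 1 subunit, 10 held 2, 7 held 3 and 1 held none. Of 24 other integrin subunits none was detected in at least 20 cells, 9 were detected in fewer, and 15 were under 1 FPKM in every cell. Itga6 and Itgb1 were thus detected in more cells than any of these 24. Of 10 genes for proteins that link integrins to actin, 4 were detected in at least 20 cells: kindlin-1 (Fermt1) in 30, the integrin-linked kinase Ilk in 23, parvin alpha (Parva) in 21 and zyxin (Zyx) in 20.

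Prom1 (Entrez Gene 19126; chromosome 5, 43993622 to 44101736, minus strand) was detected in 23 of 39 cells (59.0%, 42.1 to 74.4), and in 22 of 37 without cells 9 and 79. It was at 0 in 5 cells, had a median of 3.71 FPKM and was highest in cell 96 at 549.6 FPKM. Cells 16, 36 and 14 followed at 204, 162 and 103 FPKM. The mean was 37.1 ± 95.1 FPKM, of which cell 96 made up 38.02%, and 24.2 ± 45.1 FPKM without cells 79 and 96. Values did not fall into 2 clean classes: 11 cells lay above 0 but under 1 FPKM, 8 between 1 and 10, 11 between 10 and 100 and 4 above that. In the cells under 1 FPKM the count was at most 11. The annotation gives 12 coding transcripts, and 424 of 7175 exonic bases of the gene are shared with an antisense gene, Gm16401, whose reads cannot be told apart in libraries that do not mark strand. Prom2, the relative of Prom1, was at 0 in all 39 cells.

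Cd320 (Entrez Gene 54219; chromosome 17, 33843091 to 33849774, plus strand) was at 0 in 23 cells, so its median was 0. It was highest in cell 83 at 93.9 FPKM, followed by cells 30, 52 and 36 at 69.9, 63.3 and 51.95 FPKM. It was detected in 14 of 39 cells (35.9%, 21.2 to 52.8), with a median of 12.8 FPKM in those cells, and in 14 of 37 without cells 9 and 79. The mean over 39 cells was 10.0 ± 22.3 FPKM. On the route of vitamin B12 around this receptor, 3 of 10 genes were detected in at least 20 cells. They act inside the cell after uptake: Mmadhc in 27 cells, the mitochondrial enzyme Mut in 23 and the cobalamin carrier Mmachc in 22. The other listed genes that act inside the cell were detected in fewer cells: Mtr and Mmaa in 4 each, Mmab in 5, Abcd4 in 8, Mtrr in 10 and Lmbrd1 in 16. Tcn2, the transcobalamin that CD320 binds, was detected in 6 cells, at up to 157 FPKM in cell 51.

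Alcam (Entrez Gene 11658; chromosome 16, 52248996 to 52452997, minus strand) was the lowest of the 9. It was at 0 in 22 cells, with a median of 0, and was highest in cells 66 and 18 at 16.9 and 15.9 FPKM, followed by cells 72 and 14 at 10.0 and 6.54 FPKM. It was detected in 11 of 39 cells (28.2%, 15 to 44.9), and in 11 of 37 without cells 9 and 79. The mean was 1.81 ± 4.01 FPKM, and 6 further cells lay above 0 but under 1 FPKM. Every one of its 11 cells also held Epcam, Cd24a, Cd44, Cd164 and Itga6, and 10 of them held Itgb1. Of the other 28 cells, 100% held Epcam, 92.9% Cd24a, 85.7% Cd44, 75% Cd164, 78.6% Itga6 and 67.9% Itgb1. The intervals overlap for each of these markers, as for Cd164 with 71.5 to 100 in the 11 cells and 55.1 to 89.3 in the other 28. The 11 cells had a median of 4695 genes and the other 28 a median of 4560.5, and the part of depth in this nesting was not tested.

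By median the order was Epcam, Cd24a, Cd44, Cd164, Itga6, Itgb1, Prom1, and then Cd320 and Alcam, both at 0. No neighbours in this order differed beyond their spread over cells: each gap between medians was smaller than the SD of the paired difference. That SD describes the scatter of single cells and not the error of a gap between medians. Epcam exceeded Cd24a in 26 of 39 cells, with a gap of 1.06 between medians of log2(FPKM + 1) and an SD of 2.78. Cd44 exceeded Cd164 in 17 cells and was below it in 21, with a gap of 0.23 and an SD of 3.48. Itgb1 exceeded Prom1 in 20 cells and was below it in 18. The neighbours ordered alike in the most cells were Cd24a and Cd44, with Cd24a above in 29 cells and below in 10. Prom1 was above Cd320 in 25 cells and below it in 11. Cd164 was above Itga6 in 24 and below it in 14, and Itga6 was above Itgb1 in 23 and below it in 16. The order by cell was less even than the order by median: Epcam was the highest of the 9 in 22 cells, Cd24a in 10, Cd164 in 4 and Cd44 in 3.

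Cells held a median of 7 of the 9 markers. Cell 72 held all 9, and 14 cells held 8. Cell 79 held only 2, Epcam and Cd24a, and cells 9 and 56 held 3. There were 23 different combinations, of which 17 were seen in 1 cell. The most frequent combinations differed only in which marker was missing: 5 cells (4, 16, 18, 22 and 66) held all but Cd320, and 5 others (17, 60, 65, 83 and 86) held all but Alcam. The number of markers per cell correlated with the number of genes per cell (r = 0.62, rho = 0.48, 39 cells) and with its estimated counts (r = 0.56, rho = 0.41). Capture runs are not named for the cells, and the part of depth in any absent marker was not tested.

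**Figure D3:**
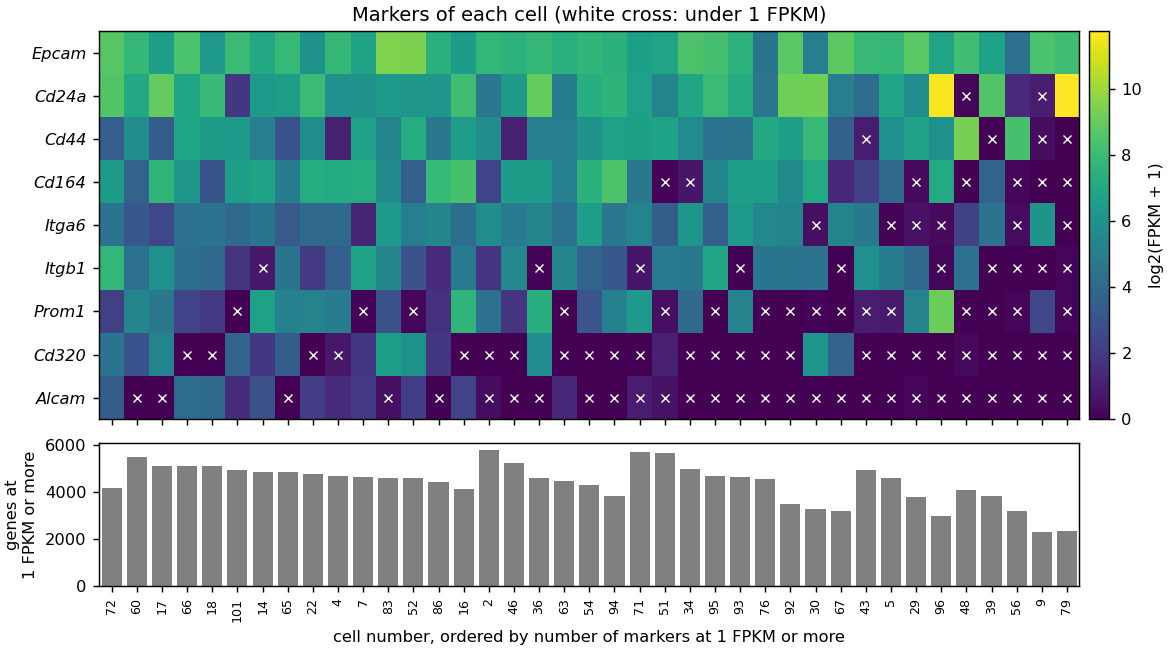
Upper panel: level of the 9 surface markers (lines) in each of 39 cells (columns) as log2(FPKM + 1) in colour, with a white cross where the value is under 1 FPKM. Lower panel: genes detected at 1 FPKM or more in the same cell. Cells run from cell 72 with 9 markers at the left to cell 79 with 2 at the right, and cells 9 and 79 have the fewest genes, 2287 and 2335.

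The 9 markers form 36 pairs. A pair separates cells where some cells hold the first marker alone and others the second alone. In 21 pairs both kinds of cell occurred, and in the other pairs the cells of 1 marker lay within those of the other. The number of cells with exactly 1 of the pair ran from 2 to 28, with a median of 15. It was highest where a marker of nearly all cells met a marker of few: Epcam and Alcam (28 cells), Cd24a and Alcam (26 cells) and Epcam and Cd320 (25 cells). In these 3 pairs no cell held the rarer marker alone, so the count repeats the rarity of Alcam or Cd320. Without cells 9 and 79 the counts were 26, 25 and 23.

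At least 5 cells on each single side were found in 3 pairs. Itgb1 and Prom1 were together in 17 cells, with 12 cells holding Itgb1 alone, 6 (cells 9, 14, 36, 71, 93 and 96) holding Prom1 alone, and 4 neither. Prom1 was thus found in 17 of the 29 cells with Itgb1 and in 6 of the 10 cells without it. Prom1 and Cd320 were together in 8 cells, with 15 cells holding Prom1 alone, 6 Cd320 alone and 10 neither. Cd320 was found in 34.8% of the 23 cells with Prom1 and in 37.5% of the 16 cells without it. Cd320 and Alcam were together in 5 cells, with 9 cells holding Cd320 alone, 6 Alcam alone and 19 neither. Alcam was found in 35.7% of cells with Cd320 and 24.0% of cells without it, with intervals of 12.8 to 64.9 and 9.36 to 45.1 that overlap. Without cells 9 and 79 the cells with Prom1 alone fell to 5 beside Itgb1 and to 14 beside Cd320, and no other count of a single marker in these 3 pairs changed.

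**Figure D4:**
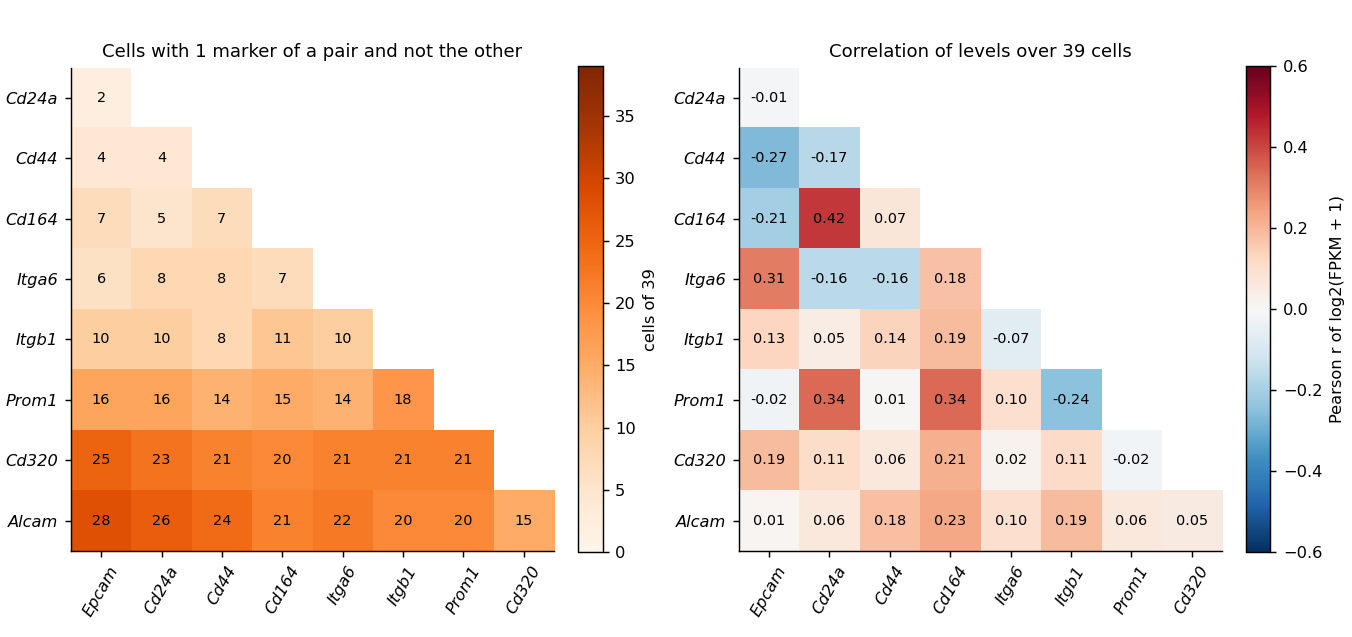
The 36 pairs of surface markers over 39 cells. Left: number of cells with exactly 1 marker of the pair at 1 FPKM or more, from 2 (Epcam and Cd24a) to 28 (Epcam and Alcam). Right: Pearson's r of log2(FPKM + 1), from -0.27 (Epcam and Cd44) to 0.42 (Cd24a and Cd164).

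Levels of the markers were only loosely related. Pearson's r of log2(FPKM + 1) over 39 cells ran from -0.27 to 0.42 with a median of 0.07, was above 0 in 26 pairs and below 0 in 10, and reached 0.3 in size in 4 pairs. The correlations are descriptions without p, since no animal or capture run is named for any cell and depth differed between cells. The highest were between Cd24a and Cd164 (r = 0.42, rho = 0.39), Cd24a and Prom1 (r = 0.34) and Cd164 and Prom1 (r = 0.34). Without cells 79 and 96 they were 0.57, 0.33 and 0.28. Cell 79, with the highest Cd24a and Cd164 at 0, lay off the first relation. Cell 96 was first in Prom1 and second in Cd24a, and leaving out this cell alone lowered r of Cd24a and Prom1 to 0.24.

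The lowest values of r over 39 cells were between Epcam and Cd44 (r = -0.27), Itgb1 and Prom1 (r = -0.24) and Epcam and Cd164 (r = -0.21). Which pair was lowest depended on the cells included: without cells 79 and 96 it was Cd44 and Itga6 (r = -0.32, against -0.16 over all cells), and without cells 9 and 79 it was Itgb1 and Prom1 (r = -0.31). For Epcam and Cd164, rho was -0.42, and r was -0.38 without cell 56 alone. Leaving out any 1 cell kept r of Epcam and Cd44 between -0.32 and -0.19. Cells 56 and 30, which followed cell 48 in Cd44, were the lowest and the third lowest in Epcam, whereas cell 52, with 685 FPKM of Epcam, was the fourth in Cd44 at 155 FPKM. For Itgb1 and Prom1, the cells highest in one were not high in the other. Cells 96 and 36, the first and the third in Prom1, held 0.141 and 0.0689 FPKM of Itgb1. Cell 72, the first in Itgb1, held 3.71 FPKM of Prom1, and cells 95 and 7, which followed it, held 0 and 0.0723 FPKM. Cell 16 was the exception, with 204 FPKM of Prom1 and 27.9 FPKM of Itgb1.

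Cd24a and Cd44 were opposed only in some of the cells at their ends. Cell 48 was first in Cd44 (640 FPKM) and last in Cd24a (0.135 FPKM), and cell 56 was second in Cd44 (323 FPKM) and the third lowest in Cd24a (1.61 FPKM). Cell 79 was first in Cd24a and last in Cd44. Cell 30 was the third in both, at 605 FPKM of Cd24a and 241 FPKM of Cd44. Cell 9 was low in both, at 0.924 FPKM of Cd24a and 0.297 FPKM of Cd44. Cell 96, second in Cd24a, held place 18 in Cd44 at 57.7 FPKM. Both markers were detected in 34 of 39 cells, and r was -0.17 over all cells, -0.07 without cells 79 and 96 and -0.22 without cells 9 and 79.

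**Figure D5:**
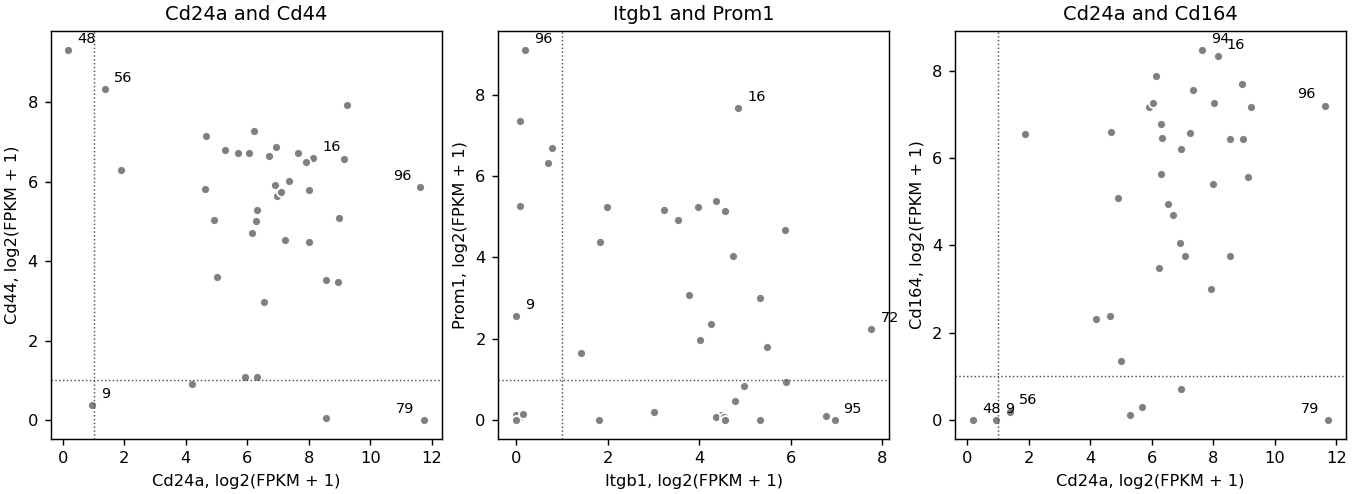
Levels of 3 pairs of surface markers as log2(FPKM + 1), with 1 point per cell, dotted lines at 1 FPKM and the numbers of cells named in the text. Left: Cd24a and Cd44, with cells 48 and 79 at opposite ends. Middle: Itgb1 and Prom1, where cells 95 and 96, high in one marker, are under 1 FPKM in the other, and cell 16 is not. Right: Cd24a and Cd164 (r = 0.42), with cell 79 at the lower right.

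Other surface genes of crypt cells set a frame for these levels. Of 22 other surface genes that have served to sort or mark crypt cells, 12 were detected in at least 20 cells. The highest medians were those of the tetraspanins Cd81 (357 FPKM, 38 cells) and Tspan8 (355 FPKM, 39 cells), followed by the tetraspanin Cd63 (197 FPKM, 38 cells) and basigin, Bsg (103 FPKM, 37 cells). The medians of Cd81 and Tspan8 lay above that of Epcam, and Cd63 lay between Epcam and Cd24a. Of 7 relatives and binding partners of Prom1, Cd24a, Alcam and Cd164, none was detected in at least 20 cells and 4, Prom2 among them, were at 0 throughout.

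For each marker the 3 genes most alike over 39 cells were sought by Pearson's r of log2(FPKM + 1) among 6550 genes detected in at least 10 cells. The highest r was that of Cd24a with Smarce1, a subunit of a chromatin remodelling complex (r = 0.72), followed by Grcc10 (0.65) and Oaz1 (0.64). Cd44 was most like Ociad2 (0.67), Ndufa4 (0.65) and Gmfb (0.65), and Cd164 most like Snw1 (0.65), Sptssa (0.64) and Glo1 (0.61). Cd320 was most like Wdr34 (0.66), Tpgs2 (0.57) and Strap (0.56). None of the 9 markers was among the 3 genes nearest to another of the 9.

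For the other markers the highest r was between 0.57 and 0.63. Epcam was most like Arpp19 (0.58), Ctnna1 (0.56), which encodes the alpha-catenin of adherens junctions, and Gtf3c6 (0.49). Itgb1 was most like Ephb2 (0.59), the receptor that positions cells along the crypt axis, Tbl1xr1 (0.57) and Sec31a (0.57). Itga6 was most like Abhd11 (0.57), Ckb (0.55) and Immp2l (0.53). Prom1 was most like Tonsl (0.57), Ivns1abp (0.55) and Stxbp3a (0.55), and Alcam most like Gm8989 (0.63), Nol12 (0.61) and Tceanc2 (0.58). With 6550 genes searched over 39 cells, the highest r of a search is large by selection, and nothing is read from these names about function.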

How the data were processed

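Single-cell RNA-seq values of 39 cells were used. The labels state that cells were captured on the Fluidigm C1 and inspected under a microscope. SMARTer cDNA was made into Nextera XT libraries, and no molecular identifiers are named. The submitters' processing notes name bcl2fastq 1.8.4, TopHat2 2.0.14 and mm10/GRCm38. The authors deposited FPKM values, summed over isoforms, and estimated counts per gene and cell, and neither was changed. The total used in FPKM is larger than the counts on genes. A transcript lost before amplification appears as 0, so an absent marker may be missing from the library only. No count model was fitted.

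Expression was taken as log2(FPKM + 1). Depth is given in the results. Exon overlaps and transcript numbers came from GENCODE M21. The members, gene lists and tests were chosen with earlier results of these data known. Named genes were the 9 members, the 3 most alike genes of each, up to 4 genes of each list with the highest medians, and fixed partners, of which 1 is not reported here. The code of the search was run on simulated data with planted rows that held no lost transcripts, and this run does not bear on the genes named. Alternatives were other detection limits, a pseudocount of 0.1 FPKM, rescaled cells, counts scaled to 600000 and leaving out cells. Tools were numpy 2.4.6, scipy 1.17.1, pandas 2.3.3, matplotlib 3.10.9 and Python 3.11.15.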

Additional observations from a re-analysis of the deposited data

How the results depend on the processing

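The share of cells with a marker moved most with the limit of detection. With every value above 0 counted, it became 100% for Cd24a, 97.4% for Cd44 and for Itga6, 92.3% for Itgb1 and 87.2% for Prom1. At 10 FPKM it was 69.2% for Itga6, 38.5% for Prom1 and 7.69% for Alcam, and at 5 FPKM it was 10.3% for Alcam. The other 54 shares under alternatives stayed within the intervals of the values in the results. At 10 FPKM, exactly 1 marker was found in 92.3% of cells for Epcam and Alcam and in 82.1% for Cd24a and Alcam. Counts of listed genes in at least 20 cells also moved at 10 FPKM. They fell from 4 to 0 for proteins that link integrins to actin and from 3 to 1 for the genes around CD44. For the vitamin B12 route they fell from 3 to 1, and for the stem cell markers from 6 to 3. By mean FPKM 7 markers took another place in the order, and by mean log2(FPKM + 1) 2 did. Cd320 and Alcam, tied by median, are counted in both numbers because each order by mean separates them. No median moved beyond the spread over cells, and none of the 24 recomputed correlations of named pairs changed sign, but r of Itgb1 and Prom1 was -0.14 with a pseudocount of 0.1 FPKM. Of all 36 pairs, 30 kept their sign without cells 9 and 79. The alternative without cells 79 and 96 was chosen after seeing the data. No paired analysis was possible because all cells belong to 1 group.

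An absent marker may have been lost before amplification, which no interval here covers. Cells 9 and 79 were shallow in genes, no animal is named for any cell, and the spread between mice is unknown.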
